A study of Homo sapiens with 8 samples.

Results

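Cytosolic ribosomal protein genes were examined for peaks of the kinase mTOR on chromatin. The set holds 50 genes, 30 for proteins of the large ribosomal subunit and 20 for proteins of the small subunit, out of 20037 protein-coding genes in the reference table. Their peaks were those that the deposited annotation names for 1 of the 50 genes at a distance of at most 50 kb from its transcription start site (TSS). Peaks in the annotation class promoter-TSS, which marks peaks at an annotated transcript start, are given apart. Without the androgen the control list (shEV EtOH) held 19 member peaks among 24948, and with it (shEV R1881) 17 among 26074. The FoxA1 hairpin lists held 47 among 35121 (shFoxA1 EtOH) and 36 among 39570 (shFoxA1 R1881).

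The peaks came from chromatin immunoprecipitation with sequencing (ChIP-seq) of mTOR in LNCaP, an established human prostate cancer line that grows in response to androgen. Cells carried a short hairpin against FoxA1 (shFoxA1), a pioneer factor that opens chromatin for the androgen receptor, or the empty hairpin vector (shEV). All of them spent 48 h without androgen in 2% charcoal-stripped serum before 24 h with 0.1% ethanol (EtOH), the vehicle, or with 10 nM of the synthetic androgen R1881. There was 1 mTOR library for each of the 4 combinations, so no difference between groups has a replicate check, no test was possible, and all that follows describes these 4 libraries. The lists measure no RNA or protein, so the identity of the line and the depletion of FoxA1 were not checked here. They carry no read totals either: sequencing depth is unknown for every library, and more bound sites cannot be told apart from a deeper or better enriched library where a list is longer.

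Each cytosolic ribosome is built from ribosomal RNA and a single copy of most of these proteins, and a growing cell spends a large share of its transcription on making them. mTOR complex 1 is best known for controlling these genes after transcription: their mRNAs start with a terminal oligopyrimidine (TOP) tract, an unbroken run of C and T bases at the first transcribed base, and their translation rises and falls with mTOR activity. mTOR has also been found in the nucleus and on DNA, including at genes that the androgen receptor regulates.

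The start regions of 8 members with an mTOR peak at the promoter in all 4 lists are shown first, because they are among those at which peaks recurred across both hairpins and both treatments. RPL7 and RPL9, at whose starts peaks also recurred, are not shown. A peak counted here may lie beside the printed window: peaks overlapped it in all 4 lists for RPS14, RPL6, RPS7, RPL35 and RPL4, in 3 for RPS6 and RPL15, and in 1 for RPS18. Each runs from 120 bases before the RefSeq TSS to 30 bases after it (build GRCh38.p14), 5′ to 3′ on the strand of the gene. Capitals mark the longest pyrimidine run that touches the 5 bases on either side of the TSS. RPS14 lies at chr5:150449710-150449859 on the minus strand, RPL6 at chr12:112409256-112409405 on the minus strand and RPS7 at chr2:3575140-3575289 on the plus strand. RPS6 is at chr9:19380207-19380356 on the minus strand, RPL35 at chr9:124861928-124862077 on the minus strand and RPL15 at chr3:23916425-23916574 on the plus strand. RPL4 is at chr15:66504826-66504975 on the minus strand, and RPS18 at chr6:33271955-33272104 on the plus strand.
RPS14: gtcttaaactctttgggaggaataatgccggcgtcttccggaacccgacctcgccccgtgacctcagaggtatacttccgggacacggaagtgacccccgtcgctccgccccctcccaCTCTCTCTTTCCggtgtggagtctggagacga
RPL6: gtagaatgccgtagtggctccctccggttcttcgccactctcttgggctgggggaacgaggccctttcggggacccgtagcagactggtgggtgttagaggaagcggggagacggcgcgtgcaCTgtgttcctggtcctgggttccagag
RPS7: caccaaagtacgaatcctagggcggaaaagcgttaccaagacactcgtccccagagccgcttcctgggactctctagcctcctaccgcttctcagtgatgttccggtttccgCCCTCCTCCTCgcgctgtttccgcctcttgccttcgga
RPS6: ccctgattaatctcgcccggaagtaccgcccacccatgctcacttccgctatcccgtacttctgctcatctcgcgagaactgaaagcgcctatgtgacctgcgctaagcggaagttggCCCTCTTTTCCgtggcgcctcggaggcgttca
RPL35: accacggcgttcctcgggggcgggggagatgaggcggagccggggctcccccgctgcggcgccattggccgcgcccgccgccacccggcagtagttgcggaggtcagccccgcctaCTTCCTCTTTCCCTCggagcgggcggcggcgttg
RPL15: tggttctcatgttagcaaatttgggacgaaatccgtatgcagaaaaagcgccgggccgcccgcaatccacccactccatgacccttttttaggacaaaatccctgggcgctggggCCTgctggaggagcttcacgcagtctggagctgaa
RPL4: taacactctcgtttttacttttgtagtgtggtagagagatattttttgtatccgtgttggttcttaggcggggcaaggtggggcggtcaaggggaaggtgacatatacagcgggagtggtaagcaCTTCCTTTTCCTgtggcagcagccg
RPS18: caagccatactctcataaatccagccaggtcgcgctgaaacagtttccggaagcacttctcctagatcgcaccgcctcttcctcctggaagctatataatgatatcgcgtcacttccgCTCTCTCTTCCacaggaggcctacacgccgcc

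For contrast, the same window is shown for the 3 members that had no peak within 50 kb under their own name and none within 1 kb of their start under any name. RPL34 is at chr4:108620456-108620605 on the plus strand, RPS4X at chrX:72277219-72277368 on the minus strand and RPS10 at chr6:34426040-34426189 on the minus strand.
RPL34: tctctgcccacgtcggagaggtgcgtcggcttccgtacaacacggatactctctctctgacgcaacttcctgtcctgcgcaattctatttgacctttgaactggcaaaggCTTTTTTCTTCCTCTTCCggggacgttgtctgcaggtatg
RPS4X: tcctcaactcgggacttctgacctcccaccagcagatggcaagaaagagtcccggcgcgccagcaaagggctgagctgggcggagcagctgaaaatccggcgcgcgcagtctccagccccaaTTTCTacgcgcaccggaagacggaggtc
RPS10: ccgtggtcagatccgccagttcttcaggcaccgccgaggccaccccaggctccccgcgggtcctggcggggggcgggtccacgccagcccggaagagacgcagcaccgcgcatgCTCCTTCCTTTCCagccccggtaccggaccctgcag

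Both sets hold long and short runs. RPS14 and RPL4 have 12 bases in capitals, RPL35 has 15, and RPS7, RPS6 and RPS18 have 11 each, whereas the starts shown for RPL15 and RPL6 have only 3 and 2. Of the promoters without a peak, RPL34 holds 18 bases, RPS10 holds 13 and RPS4X holds 5. Long and short runs thus stood among the promoters with recurrent peaks and among those without any.

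In the shEV lists, promoter peaks were present at 11 of the 50 genes with EtOH and at 12 with R1881, and in the shFoxA1 lists at 30 and 24. These are 22%, 24.0%, 60.0% and 48.0% of the members, beside 10.3%, 9.79%, 18.6% and 18.5% of all protein-coding genes in the same lists. The members' share was thus above the background in each list, and both counts were larger in the shFoxA1 lists, which are also the longer lists. With every list cut to the 24948 highest-scoring peaks, the length of the shortest, the members with a promoter peak numbered 11, 12, 17 and 11 in the same order, beside 10.3%, 9.20%, 12.9% and 11.2% of protein-coding genes. The shFoxA1 R1881 list then no longer exceeded the shEV lists, and shFoxA1 EtOH did so by a smaller margin.

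Within 50 kb the picture was flatter. Members with any peak at that distance numbered 17, 16, 35 and 30 (34.0%, 32.0%, 70.0% and 60.0% of the 50), beside 36.5%, 37.5%, 49.1% and 51.6% of protein-coding genes. In the shEV lists the members' share at this distance therefore lay slightly below the background, while their promoter share lay above it. Over the 4 lists together, 40 of the 50 genes had a peak within 50 kb at least once (23 large-subunit and 17 small-subunit genes), beside 63.0% of protein-coding genes. A promoter peak was found at least once for 36 members (21 and 15), beside 28.2% of protein-coding genes.

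**Figure D1:**
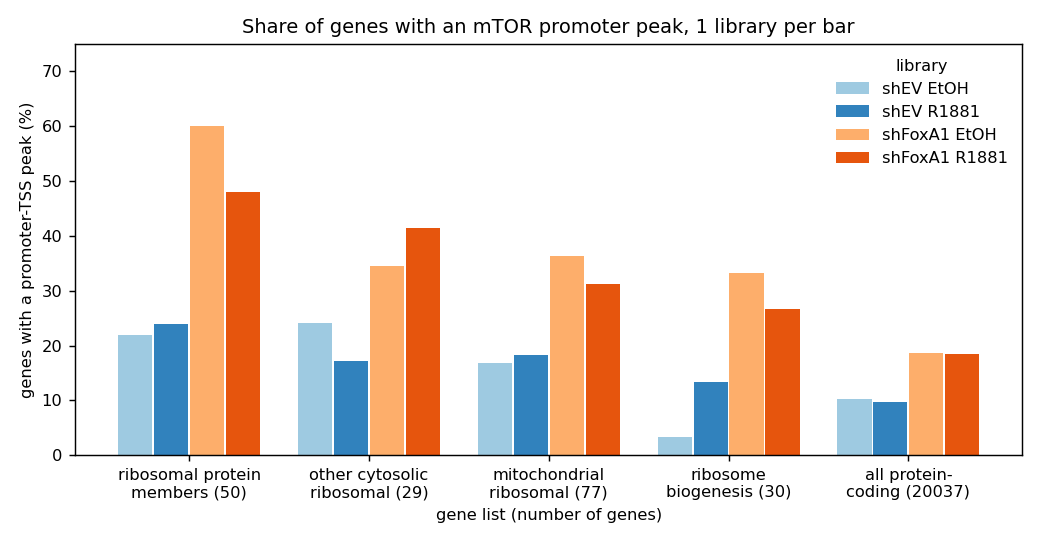
Share of genes with a promoter-TSS peak (vertical axis, percent) in 5 gene lists (horizontal axis, number of genes in brackets), 1 bar for each mTOR library and no error bar because each group has 1 library. The ribosomal protein members reach 60.0% in shFoxA1 EtOH and 48.0% in shFoxA1 R1881, while all protein-coding genes stay between 9.79% and 18.6%.

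Merging overlapping promoter peaks across the lists gave 40 promoter regions at 36 genes. A region was counted as present in a list when any peak of that list overlapped it by at least 1 bp, whatever its gene name or class. Of these regions 7 were present in all 4 lists, 10 in both shFoxA1 lists and neither shEV list, and 11 in shFoxA1 EtOH alone. Among 5958 promoter regions of protein-coding genes merged in the same way, these patterns made up 23.4%, 15.0% and 14.4%. No region was in both shEV lists and neither shFoxA1 list, and none was in both EtOH lists and neither R1881 list. A single region, upstream of RPS13, was in both lists with R1881 and in no list with EtOH. This rests on the region's edge: an RPS13 peak in shFoxA1 EtOH ended at 17077796, just short of the region's start at 17077832. Within 1 kb of its start, RPS13 had a peak in every list except shEV EtOH. The patterns of both shEV lists only, both EtOH lists only and both R1881 lists only were rare among all regions too, at 0.285%, 2.40% and 2.25%.

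**Figure D2:**
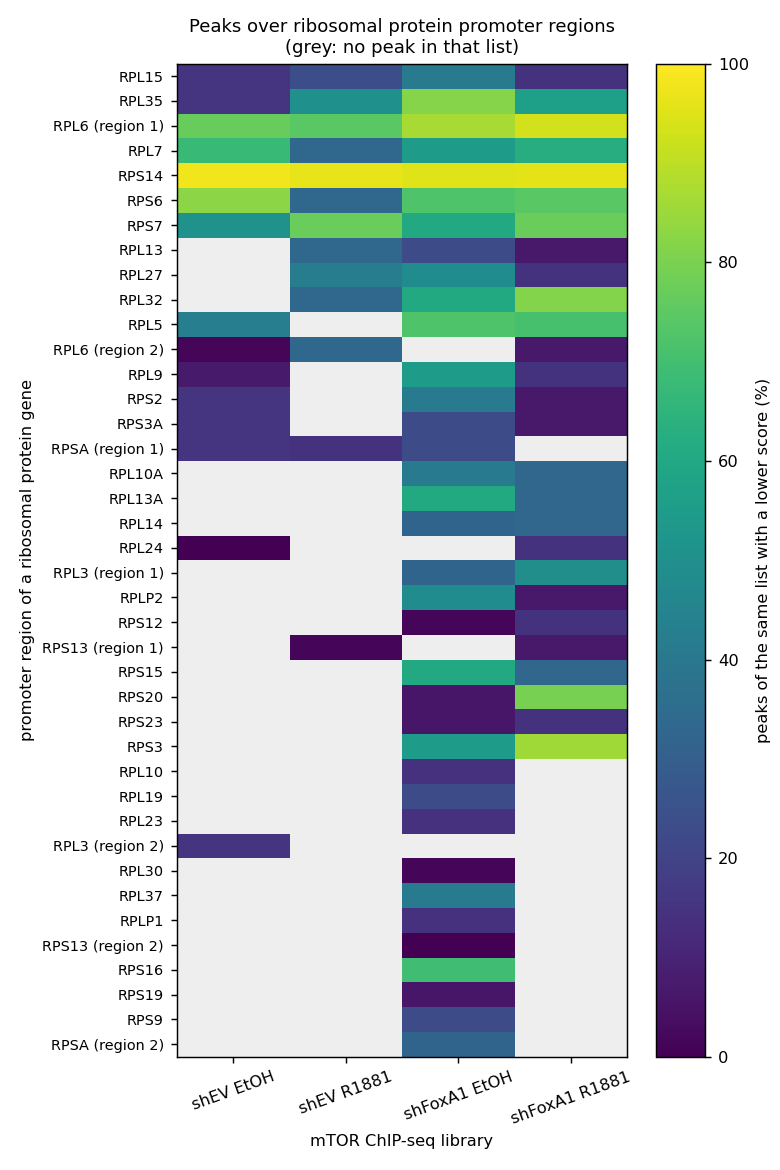
Each row is 1 of the 40 promoter regions and each column 1 mTOR library, with colour giving the share of peaks in the same list that scored lower (percent) and grey marking no overlapping peak. RPS14 is at 95.0% or more in all 4 columns, the 7 uppermost rows are filled in every column, and most grey cells are in the shEV columns.

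The 7 regions present in every list belonged to RPS14, RPL6, RPS7, RPS6, RPL7, RPL35 and RPL15. Peak scores are the authors' own and are ranked here only within their list, as the share of that list's peaks with a lower score; ranks in lists of different length show no change. RPS14, a small-subunit protein whose loss underlies the anaemia of the 5q- syndrome, held the highest-ranked member promoter in all 4 lists. Its peak scored 669 (EtOH) and 434 (R1881) in the shEV lists and 401 and 425 in the shFoxA1 lists, above 97.9%, 96.1%, 95.0% and 95.8% of the peaks of each list. The region spans chr5:150449459-150450501 and covers the printed RPS14 window whole.

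RPL6, a large-subunit protein, came next in both shFoxA1 lists. Its scores were 125, 114, 200 and 306 in the same order of libraries, above 76.8%, 74.6%, 86.9% and 93.3% of peaks, over chr12:112409142-112410126. A separate RPL6 region at chr12:112418118-112419157, beside the start of PTPN11, was in the list of every library except shFoxA1 EtOH and ranked low, with at most 33.7% of peaks below it.

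RPS6, the small-subunit protein that S6 kinase phosphorylates downstream of mTOR complex 1, had a promoter peak in each list. It scored 158, 50, 113 and 112, above 82.8%, 33.7%, 72.6% and 74.3% of peaks, at chr9:19379734-19380985. RPS7, another small-subunit protein, scored 67, 125, 84 and 122, above 50.9%, 77.3%, 60.9% and 77.1% of peaks, at chr2:3574652-3575894. In each list at least 1 of these small-subunit promoters therefore ranked above the middle of the list.

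RPL35 and RPL15, both of the large subunit, share their promoters with a gene on the opposite strand. The RPL35 region, at chr9:124861432-124862340, scored 34, 67, 155 and 74 (above 15.1%, 50.1%, 81.8% and 56.4% of peaks), and its peaks in both shFoxA1 lists are named for the neighbour ARPC5L. RPL15 scored 34, 42, 58 and 34, above at most 40.9% of peaks, and both of its EtOH peaks are named for NKIRAS1. The RPL7 region, whose neighbour is RDH10, scored 95, 50, 75 and 83, above 67.3%, 33.7%, 55.3% and 62.3%. Its peaks in both shFoxA1 lists are named for RDH10, as is the peak scoring 95 in shEV EtOH. The shEV EtOH peak named for RPL7 scored 34, above 15.1%. Peaks at such shared promoters lie between 2 genes, and the lists do not tell which of them the bound mTOR concerns.

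Among the other small-subunit genes, RPS3, RPS12, RPS15, RPS20 and RPS23 had a promoter region in both shFoxA1 lists and in neither shEV list. RPS3, which lines the mRNA entry channel, scored 75 with EtOH and 175 with R1881, above 55.3% and 85.8% of peaks. RPS20 scored 27 and 132, above 6.16% and 79.4%. RPS23, a protein of the decoding centre, ranked low in both, with 6.16% and 14.5% of peaks below it. RPS9, RPS16 and RPS19 had theirs in shFoxA1 EtOH alone; RPS16 scored 103, above 69.4% of peaks, and RPS19, the gene most often mutated in Diamond-Blackfan anaemia, scored 27, above 6.16%. RPS2 and RPS3A were missing only from shEV R1881. RPSA, first described as the laminin receptor precursor, had a region at its start in every library except shFoxA1 R1881 and another, further upstream, in shFoxA1 EtOH alone. RPS13 had its R1881-only region at chr11:17077832-17078753, scoring 20 in shEV R1881 and 27 in shFoxA1 R1881 (above 1.42% and 6.65% of peaks), and a separate region directly at the start in shFoxA1 EtOH, scoring 15, the lowest score of that list.

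Large-subunit genes showed the same range of patterns. RPL10A, RPL13A, RPL14, RPL3 and the stalk protein RPLP2 had a promoter region in both shFoxA1 lists and in neither shEV list. RPL10, RPL19, RPL23, RPL30, RPL37 and RPLP1, the other acidic stalk protein, had theirs in shFoxA1 EtOH alone. RPL30 also had a peak of the exon class in shEV EtOH, centred 190 bp from its start. RPL13, RPL27 and RPL32 were missing only from shEV EtOH, and RPL32 reached a score of 142 in shFoxA1 R1881, above 81.5% of peaks. RPL5, which with RPL11 and 5S RNA forms the particle that restrains MDM2, was missing only from shEV R1881, as was RPL9; RPL5 scored 58, 113 and 102 in the other 3 lists, above 42.9%, 72.6% and 71.0%. RPL24 had a region in shEV EtOH and shFoxA1 R1881 only, and a second RPL3 region, which spans the RPL3 start but carries the annotation of the small nucleolar RNA SNORD43, was in shEV EtOH alone.

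The 11 regions found in shFoxA1 EtOH alone were mostly low-ranked: apart from RPS16, which scored 103, their scores ran from 15, the lowest of that list, to 58, with no more than 40.9% of its peaks below any of them. The 3 regions that were highest in shFoxA1 R1881 and had no shEV peak or only 1, RPS3, RPL32 and RPS20, were above 85.8%, 81.5% and 79.4% of that list.

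The gene name in the files hides part of the set. The 10 members with no peak under their own name were RPL4, RPL7A, RPL8, RPL12, RPL18, RPL34, RPLP0, RPS4X, RPS10 and RPS18. A RefSeq start was found for 9 of them (42 of the 50 members in all), and 6 of the 9 had a peak within 1 kb of that start that the files name for a neighbouring gene: ZWILCH at RPL4, MED22 at RPL7A, LRSAM1 at RPL12, SPHK2 at RPL18, PXN-AS1 at RPLP0 and VPS52 at RPS18. RPL4, a large-subunit protein that lines the exit tunnel, had such a peak in all 4 lists. It scored 76, 104, 361 and 164, above 57.4%, 71.3%, 94.3% and 84.6% of peaks, so that in shFoxA1 EtOH it ranked between RPS14 and RPL6. RPS18 had a neighbour-named peak in all 4 lists too, with scores of 34, 27, 75 and 41. At RPL9 a further peak, named for LIAS and reaching to within 1 kb of the RPL9 start, scored 215, 202, 223 and 425, above 88.7%, 88.2%, 88.7% and 95.8% of peaks.

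Counted by position and not by name, 13, 14, 33 and 27 of the 42 members with a RefSeq start had a peak within 1 kb of it (31.0%, 33.3%, 78.6% and 64.3%). The same count over 15843 protein-coding genes gave 19.3%, 17.5%, 34.0% and 33.5%. At least 1 list held such a peak for 35 of the 42 members, 83.3% beside 43.7% of protein-coding genes, and all 4 lists did for 9 members, 21.4% beside 10.8%. Those 9 were RPL4, RPL6, RPL9, RPL15, RPL35, RPS6, RPS7, RPS14 and RPS18. The order of the libraries was the same as by name, with shFoxA1 EtOH highest.

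Which members gained or lost a peak was compared in 4 pairs of libraries, where a gained peak has no overlap of 1 bp or more in the other list. The pairs share libraries, so their counts are not independent of each other. The first pair asks what androgen does with FoxA1 present. In shEV, R1881 against EtOH gained 4 of 13 member promoter peaks (30.8%, beside 38.9% of all promoter-TSS peaks of protein-coding genes) and lost 4 of 12 (33.3%, beside 42.8%). RPL13, RPL27, RPL32 and RPS13 were gained, and RPL24, RPL3, RPS2 and RPS3A were lost. By this count gains and losses were equal in number, and both shares were below the background. The tie depends on the name and class of the peaks. Among the merged promoter regions, those of RPL5 and RPL9 were also in shEV EtOH and not in shEV R1881. Their shEV EtOH peaks were left out here because 1 is of another class and the other is named for LIAS.

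With the FoxA1 hairpin, R1881 against EtOH gained 2 of 24 member promoter peaks (8.33%, beside 28.7%) and lost 11 of 30 (36.7%, beside 29.6%). The gains were at RPL24 and RPS13. The losses were at RPL10, RPL19, RPL23, RPL30, RPL37, RPLP1, RPS9, RPS13, RPS16, RPS19 and RPSA, the same 11 regions found in shFoxA1 EtOH alone. RPS13 stands in both lists because its peaks in the 2 libraries did not overlap. Among the 10000 highest-scoring peaks of each list, gains outnumbered losses by 2 instead, from 4 gains and 2 losses (25.8% of promoter-TSS peaks of protein-coding genes were gained and 35.2% lost at that setting).

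The other 2 pairs compare the hairpins at the same treatment. In EtOH, shFoxA1 against shEV gained 23 of 30 member promoter peaks (76.7%, beside 55.4%) and lost 3 of 12 (25.0%, beside 14.8%). The losses were RPL24, RPL3 and the RPL6 region beside PTPN11. RPL3 was among the gains too, because its peaks in the 2 libraries did not overlap. In R1881, shFoxA1 against shEV gained 15 of 24 (62.5%, beside 57.1%) and lost 1 of 13 (7.69%, beside 15.3%), at RPSA. Both promoter gains were thus far larger than the losses, as for protein-coding genes at large. With lists of equal length the excess shrank to 11 gains and 5 losses in EtOH (background 43.1% gained and 25.7% lost) and to 6 gains and 6 losses in R1881 (42.8% and 27.2%), so the length of the lists moved with this result.

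Over all member peaks within 50 kb, losses outnumbered gains in both R1881 pairs and gains outnumbered losses in both hairpin pairs. R1881 against EtOH gained 5 of 17 and lost 8 of 19 in shEV (29.4% and 42.1%, beside 46.1% and 42.5%). It gained 10 of 36 and lost 23 of 47 in shFoxA1 (27.8% and 48.9%, beside 43.1% and 34.9%), but 4 gains and 3 losses were left among the 10000 highest-scoring peaks of each list (background 33.4% and 32.5%). The FoxA1 hairpin gained 35 of 47 and lost 5 of 19 in EtOH (74.5% and 26.3%, beside 51.2% and 25.3%), and gained 24 of 36 and lost 2 of 17 in R1881 (66.7% and 11.8%, beside 54.6% and 25.5%). With equal lengths the hairpin's counts became 17 gains and 8 losses in EtOH (background 38.2% and 34.3%) and 8 gains and 7 losses in R1881 (39.4% and 35.5%).

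**Figure D3:**
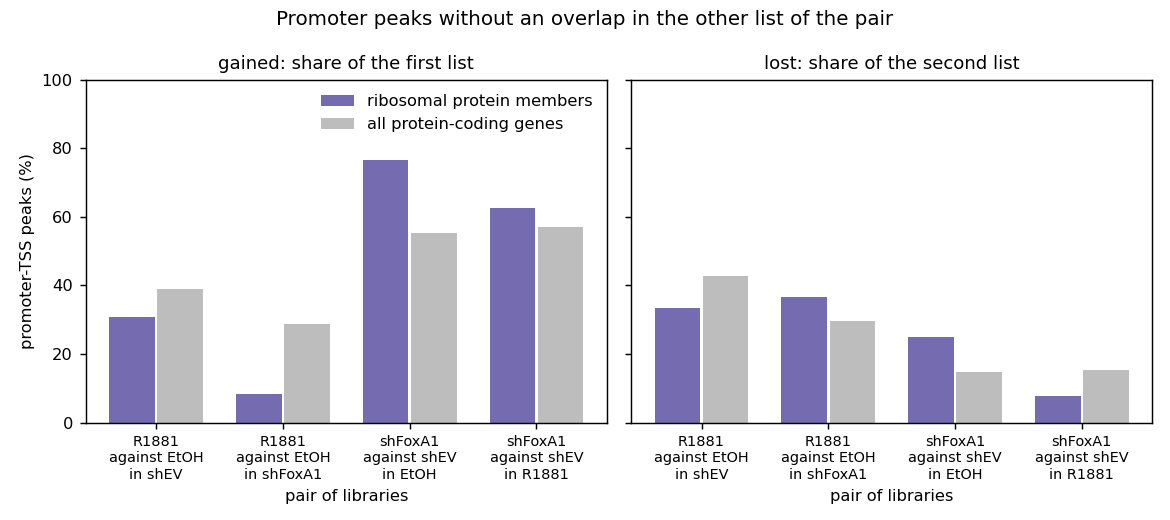
Share of promoter-TSS peaks (vertical axis, percent) without an overlapping peak in the other list, gained on the left and lost on the right, for 4 pairs of libraries (horizontal axis), ribosomal protein members beside all protein-coding genes; 1 library per group, no error bars. The members' highest bar is the gain of 76.7% in shFoxA1 against shEV in EtOH, and their lowest gain is 8.33% for R1881 against EtOH in shFoxA1.

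Related genes were set beside the members. Of 29 further cytosolic ribosomal protein genes, 7, 5, 10 and 12 had a promoter peak (24.1%, 17.2%, 34.5% and 41.4%). These genes had their highest count in shFoxA1 R1881 and not in shFoxA1 EtOH, and from EtOH to R1881 in shFoxA1 they lost 1 promoter peak and gained 1, beside the members' 11 and 2. Of 77 mitochondrial ribosomal protein genes, whose products translate the mitochondrial genome and whose mRNAs mostly lack a TOP tract, 13, 14, 28 and 24 had one (16.9%, 18.2%, 36.4% and 31.2%). Of 30 genes for ribosome biogenesis and RNA polymerase I, 1, 4, 10 and 8 did (3.33%, 13.3%, 33.3% and 26.7%). Other TOP mRNA genes, such as those for elongation factors, numbered 4, 1, 4 and 6 of 15, and ribosomal protein paralogs 2, 2, 3 and 1 of 8. By promoter peaks under their own name the members had the highest share of these lists in both shFoxA1 libraries. Within 1 kb of the RefSeq start, however, the paralogs were higher in shFoxA1 EtOH (83.3% of 6, beside 78.6%), and within 50 kb the other TOP mRNA genes were higher in shFoxA1 R1881 (66.7% beside 60.0%). How far these shares depend on the choice of the 50 genes was not tested.

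Most member promoter peaks ranked low in their lists, RPS14 and a few others aside. Their median score was 34, 50, 49 and 49, with 15.1%, 33.7%, 32.3% and 33.0% of peaks lower, beside medians of 34.0%, 33.7%, 40.9% and 41.7% for all promoter-TSS peaks of protein-coding genes. Below the middle of their list were 8 of 12, 9 of 13, 19 of 30 and 16 of 24, or 66.7%, 69.2%, 63.3% and 66.7%, beside 61.1%, 62.5%, 59.7% and 62.1% of all promoter-TSS peaks of protein-coding genes. The members' median rank was thus below that background in 3 lists and the same in shEV R1881. The median width was 555, 594, 504 and 590 bp, and the median GC content was 57.1%, 62.1%, 58.8% and 58.7%, beside 64.3%, 63.2%, 64.3% and 63.2% for protein-coding genes. In each list, then, member promoter peaks held less GC at the median than promoter peaks in general.

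Member peaks lay on both sides of the TSS. Without regard to side, the median distance of the peak centre was 212 bp (EtOH) and 172 bp (R1881) in the shEV lists and 152 and 170 bp in the shFoxA1 lists. All promoter-TSS peaks of protein-coding genes had medians of 179, 198, 160 and 171 bp, so the members were neither nearer nor farther in all lists. Centres upstream of the start made up 50%, 61.5%, 56.7% and 70.8% of member peaks, beside 70.3%, 73.2%, 68.6% and 69.3%. The signed medians, negative upstream, were -10.0, -19.0, -17.0 and -113 bp, beside -121, -143, -101 and -113 bp. In the first 3 libraries, then, the members' centres were spread more evenly over both sides than promoter peaks in general.

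**Figure D4:**
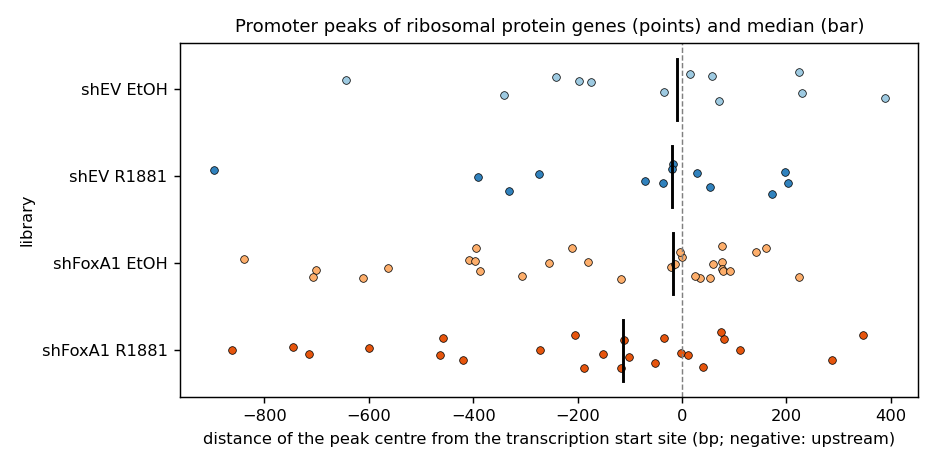
Each point is 1 member promoter-TSS peak, with the distance of its centre from the TSS in bp on the horizontal axis (negative upstream, vertical spread without meaning) and 1 row per mTOR library; the bar is the signed median. Points lie on both sides of the start in every row, and the signed medians are -10.0, -19.0, -17.0 and -113 bp from the top row down.

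Outside the promoter-TSS class, the member peaks formed 29 regions, of which 21 were in a single list. Not all of them were distant from a start. The RPL5 peak, the RPL30 exon peak and the RPSA intron peak had centres 130, 190 and 236 bp from it. Those of RPL5, RPL10A and RPSA also overlapped promoter regions counted above. An exon region of RPS15 was in both EtOH lists and in neither R1881 list, scoring 27 in shEV and 49 in shFoxA1. Peaks in annotated repeats made up 16 of the 29. The 3 regions present in all 4 lists were all intergenic and in SVA elements, composite retrotransposons particular to apes: an SVA_D upstream of RPL11 at chr1:23688340-23689202, an SVA_B upstream of RPL30, and an SVA_C downstream of RPS24 at chr10:78075525-78076817. Only 1 further region, near RPL32 in shFoxA1 EtOH, was in an SVA. Over all peaks, promoter-TSS peaks included, SVA elements held 1.91%, 1.56%, 2.12% and 1.70% in the 4 lists. Shares in repeats, in a single list, in both EtOH lists or in all 4 lists were not counted for other genes' non-promoter peaks. The counts here are therefore not read as particular to the members. The sources used here do not say how reads that map to several repeat copies were handled.

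RPL11 and RPS24 had no promoter peak in any list, so their presence within 50 kb rests on these repeats and, for RPS24, on 1 intron peak in shFoxA1 EtOH. The RPL11 element scored 58, 85, 75 and 49, above 42.9%, 62.5%, 55.3% and 33.0% of peaks, with centres -3217, -3008, -3032 and -2914 bp from the start. The RPS24 element scored 76, 50, 134 and 92, above 57.4%, 33.7%, 77.8% and 67.1%, about 42 kb downstream. RPL38, a protein known for its part in translating Hox mRNAs, and RPS27 likewise had peaks but no promoter peak. The members with the most regions outside the promoter-TSS class were RPLP1, with 4, and RPL38, with 3, each present in 1 shFoxA1 list only.

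Long pyrimidine runs near the TSS were more frequent at the members than at other genes, and were found at members with and without a peak. Such a run need not include the first transcribed base, as at RPL4, where it began 5 bases after the TSS. Whether the runs are TOP tracts of the mRNAs was not tested. The longest pyrimidine run touching the start had a median of 11 bases over the 42 members (2 to 25) and 4 bases over 15843 protein-coding genes. A run of at least 8 bases was found at 33 of the 42 (78.6%), beside 15.4% of protein-coding genes, 10.1% of mitochondrial ribosomal protein genes and 90.5% of the further cytosolic ribosomal protein genes. By presence of a peak within 1 kb of the start, such a run was found at 7 of the 9 members with a peak in all 4 lists, 20 of the 26 with a peak in 1 to 3 lists, and 6 of the 7 with none. The printed windows show this: RPL34, with no peak, holds a longer run than any of the 8 promoters with recurrent peaks.

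**Figure D5:**
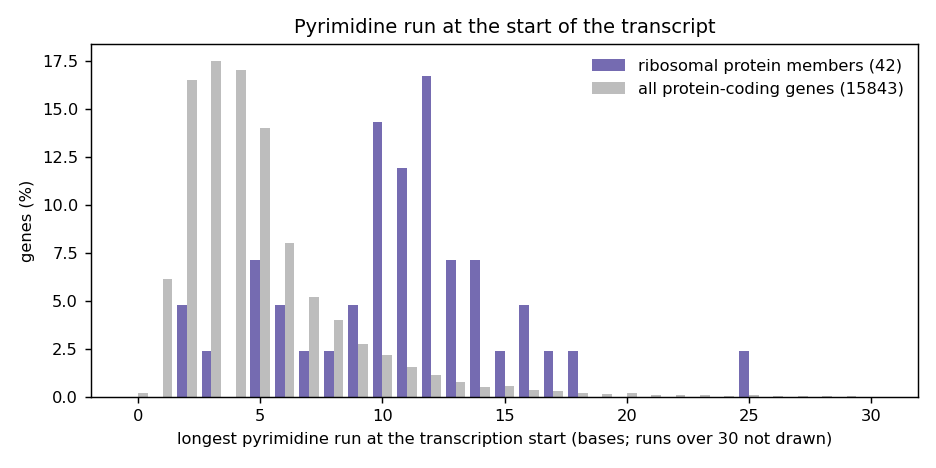
Length in bases of the longest pyrimidine run at the TSS (horizontal axis) against the share of genes in percent (vertical axis), for 42 ribosomal protein members and 15843 protein-coding genes. The members' bars centre on a median of 11 bases and those of protein-coding genes on 4 bases.

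Other motifs were counted as exact letters on both strands over 300 bases, from 250 before the start to 50 after it; none of the motifs contains another. The ETS core CCGGAAG was found at 15 of the 42 members (35.7%), beside 16.5% of protein-coding genes and 43.5% of mitochondrial ribosomal protein genes; it was in 3 of the 9 promoters with a peak in all 4 lists, 8 of the 26 with a peak in 1 to 3, and 4 of the 7 with none. The GC box GGGCGG was at 28 (66.7%, beside 64.3%), the TATA box core TATAAA at 4 (9.52%, beside 12.4%), the YY1 core AAGATGGC at 3 (7.14%, beside 4.66%) and the E-box CACGTG at 3 (7.14%, beside 10.9%). The forkhead core TGTTTAC, of the kind FoxA1 binds, was at 0 of the 42 members and at 3.75% of protein-coding genes. The androgen receptor half-site AGAACA was at 8 (19%, beside 14.9%). These are matches of letters in the reference, and a window without a match says only that these letters are not in it.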

How the data were processed

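The series holds 8 LNCaP libraries, 4 of mTOR ChIP and 4 of input, read as 150 bp pairs per the labels. Input libraries were not used. The submitters' processing notes name the build hg38 and, without roles, the tools HOMER 4.11.1, MACS2, BWA 0.7.12, deepTools 3.5.0, Picard 2.0.1 and Trimmomatic 0.36. Per the file headers, each deposited list is HOMER's annotation of the peaks of 1 library. The peak score is the authors' deposited value, and the sources used here do not say how it is defined or which threshold and control the caller had. The deposited GC fraction of each peak was printed as a percentage, and the deposited distance to the TSS in bp was used unchanged.

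Peaks on chromosomes 1 to 22, X and Y were used with Python 3.11.15, pandas 2.3.3 and NumPy 2.4.6, and figures were drawn with matplotlib 3.10.9. Genes were matched to RefSeq (GRCh38.p14) by symbol for members and by Entrez ID for the background. The deposited distance was within 2 bp of that from a RefSeq start for 74.5% to 76.1% of promoter peaks of genes with a start. The overlap rules were tested on simulated peaks with known answers. Members and gene lists were chosen with earlier results of these data known. All members with a promoter peak were named with their pattern. Values were given for promoter regions in all 4 lists or limited to 1 treatment, and for most of the 5 highest ranked per list. Values were also given for examples of the other patterns, chosen after their values were seen. Alternatives were another distance limit, overlap, score cut, list length or assignment of peaks to genes.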

Additional observations from a re-analysis of the deposited data

How the results depend on the processing

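With 1 library per group there was no replicate to leave out. No paired analysis was possible because each group has 1 library and the counts come from no test. Of 72 alternatives to 16 values (8 counts of genes and 8 differences of gains minus losses), 49 kept the direction and stayed within 1.5 times of the value, 21 moved further and 2 reversed. All 23 of the latter came from the 2 ways of shortening the lists; other distance limits, overlaps, the exclusion of repeats and the assignment of peaks by position moved none of the 16 that far. Single counts of gains or losses did move: promoter gains for R1881 in shFoxA1 went from 2 to 4 with an overlap of 50% and to 1 within 500 bp, gains within 50 kb there from 10 to 6 at 10 kb, and promoter losses for shFoxA1 with an overlap of 50% from 3 to 5 in EtOH and from 1 to 2 in R1881. When only the top 10000 peaks by score were kept in every list, members with a peak within 50 kb fell to 4, 4, 5 and 6 and with a promoter peak to 3, 3, 4 and 6 (libraries ordered as in the report). Gains minus losses within 50 kb became 0 for R1881 in shEV, 1 for R1881 in shFoxA1 (reversed from -13), 1 for shFoxA1 in EtOH and 2 for shFoxA1 in R1881; at promoters they became 2 for R1881 in shFoxA1 (reversed from -9), 1 for shFoxA1 in EtOH and 3 for shFoxA1 in R1881. Shares of protein-coding genes with a peak were counted neither among the top 10000 peaks nor, within 50 kb, for lists of equal length. These member counts therefore have no background beside them. Among the top 10000, gains and losses of protein-coding genes were counted for R1881 in shFoxA1 only. With lists of equal length, the shFoxA1 EtOH and shFoxA1 R1881 lists held 22 and 16 members within 50 kb and 17 and 11 with a promoter peak. Gains minus losses for shFoxA1 against shEV then fell from 30 to 9 in EtOH and from 22 to 1 in R1881 within 50 kb, and from 20 to 6 and from 14 to 0 at promoters. Shorter lists hold fewer member peaks by construction, while losses can rise: with equal lengths those for shFoxA1 went from 5 to 8 in EtOH and from 2 to 7 in R1881 within 50 kb. No read totals were at hand to scale the lists by depth. Counting promoter peaks by gene name or annotated transcript, an alternative chosen after seeing the data, gave 14, 14, 35 and 28 of the 50 members. The same count over 20037 protein-coding genes gave 2352, 2205, 4214 and 4209. The background for shortened lists was also added after seeing the data.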

Other observations

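Peaks named for ribosomal protein pseudogenes, which are processed copies scattered over the genome, were counted apart and belong to no comparison above. The shEV lists held 10 (EtOH) and 14 (R1881) such peaks within 50 kb and the shFoxA1 lists 14 and 16, of which 8, 12, 11 and 13 were in annotated repeats. Peaks at all pseudogenes numbered 600, 670, 790 and 898 in the same lists.

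Several promoter peaks named for a member carry an annotated transcript of another gene: 4 (EtOH) and 2 (R1881) in the shEV lists and 4 in each shFoxA1 list. Small nucleolar RNA genes, whose products guide modification of ribosomal RNA and which sit in introns of ribosomal protein genes, account for 5 of the 9 partner genes: SNORD68 in RPL13, SNORA21 in RPL23, SNORD43 in RPL3, SNORD54 in RPS20 and SNORD15A in RPS3. The others are ARPC5L at RPL35, PTPN11 at RPL6, LIAS at RPL9 and SNHG9 at RPS2.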
